A study of Mus musculus with 6 samples.

Results

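Chemokine ligands were examined in adipose tissue of cavin-3 knockout (KO) and wild type (WT) mice. Members were all genes named Ccl, Cxcl, Cx3cl or Xcl with a number on the array, each read from its brightest probe set annotated to a single gene, which gave 34 of the 19937 genes measured. They comprised 19 CC ligands, 13 CXC ligands, Cx3cl1 and Xcl1. The Ccl21 and Ccl27 genes, whose 3 probe sets carry several symbols, were not analysed here. Of the 34, 17 were brighter than the array median on all 6 arrays and 15 dimmer on all 6. Both genotypes were sampled with 3 mice, and RNA from each mouse was hybridised to a Mouse Gene 1.0 ST array. All mice were 10 weeks old, ate standard chow and were fasted for 6 hours before the fat was taken. In KO mice the whole cavin-3 gene was exchanged for lacZ/neo in every tissue, in a line raised from a single C57BL/6N embryonic stem cell clone crossed to C57BL/6. The methods state that male animals were studied. The fat depot is not given in the labels.

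Chemokines are small secreted proteins that bind membrane-spanning receptors on leukocytes and steer the cells along a gradient. Homeostatic chemokines are made continuously and place lymphocytes and progenitors in their tissues. Inflammatory chemokines are induced by cytokines and microbial products, largely through NF-κB and interferon-activated factors, and recruit monocytes, neutrophils, eosinophils and effector T cells. In obese fat, Ccl2 and its receptor Ccr2 are known for monocyte recruitment and Ccl5 for T cell recruitment.

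Cavin-3 itself (Cavin3 in the annotation, Prkcdbp in the paper) had log2 signals of 6.79, 6.78 and 7.12 in KO replicates 1, 2 and 3. WT replicates 1, 2 and 3 had 10.05, 10.90 and 10.45, which gave a fold of 0.0843, KO over WT (limma, adjusted p = 0.0409). At an adjusted p under 0.05, 2 of 34760 probe sets (0.00575%) were called between the genotypes. The arrays' median log2 signals lay between 6.07 and 6.15, and the 7 adipocyte markers measured averaged 11.88 to 12.10 on every array. KO replicate 3 and WT replicate 2 stood apart. Their Xist signals were 11.34 and 11.14, against 3.70 to 6.30 on the other 4 arrays, their signals of the Y-linked gene Uty were 3.21 and 3.36, against 7.89 to 8.14, and their skeletal muscle markers averaged 8.98 and 8.93, against 6.16 to 7.18. High Xist with low Uty is the pattern of female tissue, although the methods state that males were studied. The sex of these mice was not tested otherwise. Ligands that were highest or lowest on both of these arrays, and some others, are given with and without the arrays.

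No chemokine ligand passed the adjusted threshold: the limma adjusted p was 1.0 for all 34. By mean, 25 ligands (73.5%) were lower in KO and 9 higher, where 49.7% of all genes were lower, and the median difference, KO minus WT, was -0.08 on the log2 scale, against 0.00 over all genes. The lean rested partly on WT replicate 3. Without it the median was -0.01 and 18 ligands were lower. Counts before adjustment are descriptions: Ccl2, Ccl5, Cxcl11 and Xcl1 had an unadjusted p under 0.05 in limma, all lower in KO, which is 11.8% of the ligands beside 0.838% of all genes in either direction and 0.477% in the lower direction. KO and WT values did not overlap for 5 ligands (14.7%), those 4 and Ccl25, which was higher in KO, beside 4.61% of all genes in either direction and 2.53% in the lower direction. For 32 of the 34 ligands, all but Cxcl11 and Xcl1, the range of values within a genotype was larger than the difference between genotypes. The 95% intervals kept 30 ligands within a 2-fold difference either way and 22 within 1.5-fold. In whole tissue, fewer cells of a type and less RNA per cell cannot be told apart.

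**Figure D1:**
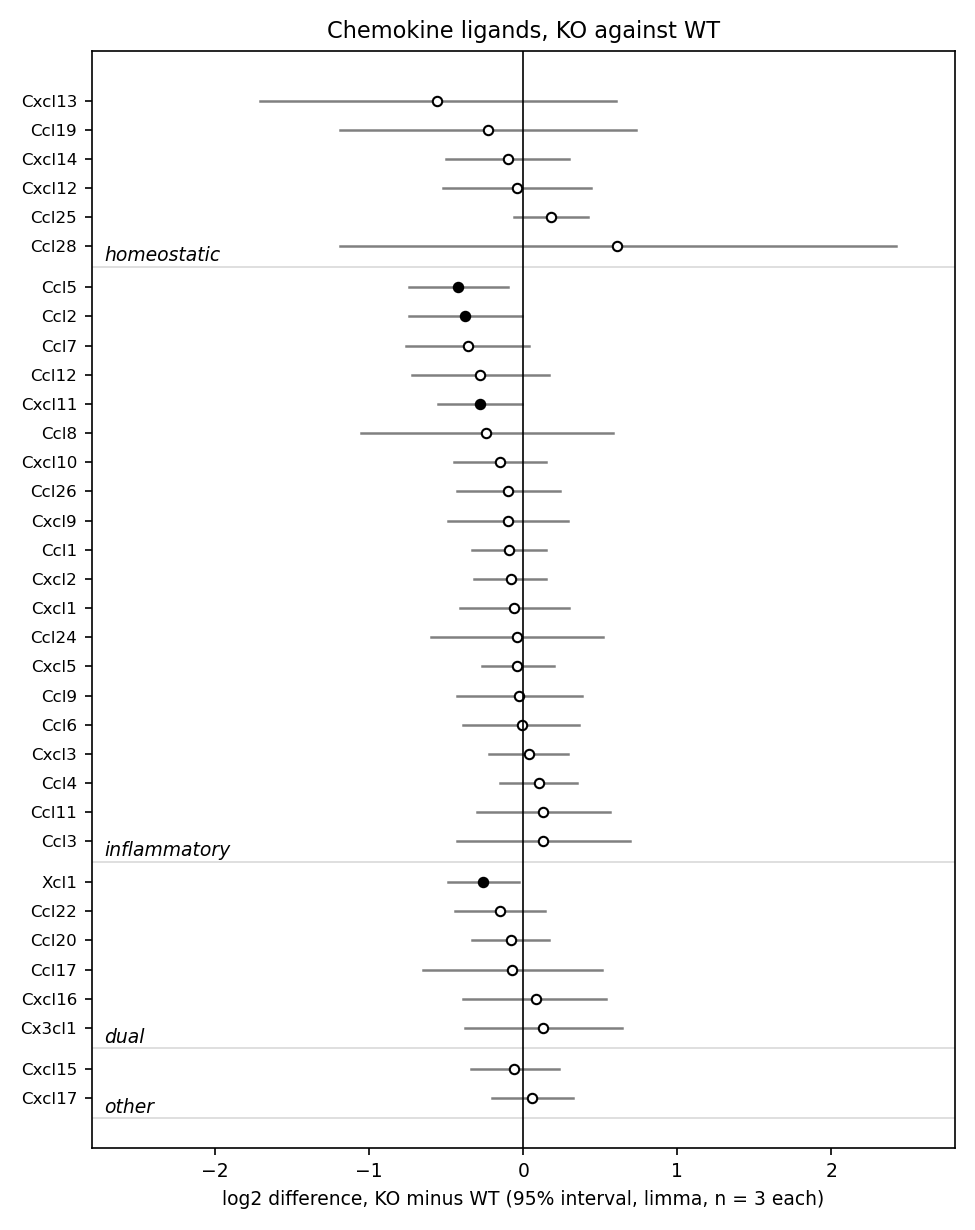
Log2 difference, KO minus WT, with the 95% limma interval for each of the 34 chemokine ligands (n = 3 per genotype), grouped by class. Filled points are the 4 ligands with an unadjusted p under 0.05 (Ccl5, Ccl2, Cxcl11 and Xcl1). All 4 lie left of 0, and the widest intervals are those of Ccl28 and Cxcl13.

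Ccl2, Ccl7 and Ccl12 are monocyte attractants that act on Ccr2. All 3 had lower means in KO, with a median difference of -0.36, and none passed the adjusted test. Ccl2 had log2 signals of 6.79, 6.82 and 6.39 in KO replicates 1 to 3, against 6.93, 6.96 and 7.23 in WT replicates 1 to 3. Every KO value lay under every WT value, by 0.12 at the closest. The Ccl2 means were 6.67 ± 0.24 in KO and 7.04 ± 0.17 in WT (SD, n = 3 each), a fold of 0.771 (95% interval 0.597 to 0.994). KO replicate 3 was the lowest and WT replicate 3 the highest. Ccl2 differed by -0.24 without KO replicate 3, by -0.28 without WT replicate 3 and by -0.28 without both arrays with high Xist, and it kept an unadjusted p under 0.05 in 5 of the 15 alternative settings.

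Ccl7, close to Ccl2 on chromosome 11, had log2 signals of 6.86, 6.57 and 6.27 in KO, against 6.78, 7.02 and 6.99 in WT. The groups overlapped, with KO replicate 1 above WT replicate 1, and the fold was 0.778 (95% interval 0.589 to 1.03). The difference of -0.36 became -0.21 without KO replicate 3 and -0.17 without both arrays with high Xist. Ccl12, a mouse relative of Ccl2, was dimmer than the array median on all 6 arrays, at 4.64, 4.20 and 3.93 in KO, against 4.46, 4.61 and 4.52 in WT. Its difference of -0.28 was -0.07 without both arrays with high Xist. KO replicate 3 was the lowest array for Ccl2, Ccl7 and Ccl12 alike. The 8 listed macrophage markers were all brighter than the array median. By mean 6 were lower and 2 higher in KO, with a median difference of -0.03, and KO replicate 3 was the lowest array for 1 of them. These markers summed to linear intensities of 2773, 3127 and 3183 in KO, against 2730, 3047 and 3654 in WT. Their part in the ligand values was not tested. Ccr2 differed by 0.06.

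Ccl8, a further CC ligand of the same gene run, gave 6.17, 6.12 and 7.23 in KO, against 6.74, 7.10 and 6.39 in WT. Its highest values fell on KO replicate 3 and WT replicate 2, the arrays with high Xist, and the genotypes overlapped. The fold was 0.849 (95% interval 0.483 to 1.49), and the difference of -0.24 was -0.42 when both arrays with high Xist were dropped. Dropping KO replicate 3 alone gave -0.60, and dropping KO replicate 2 alone gave -0.04. In RefSeq's gene order Ccl2, Ccl7, Ccl11, Ccl12, Ccl8 and Ccl1 form a run of 6 among the 12 ligands on chromosome 11, where a run has at most 3 other coding genes between its neighbours. Promoter windows (GRCm38.p6, 250 bases before to 50 after the start) matched 23 of the 34 ligands. TATAAA, the TATA box letters, was searched on the gene's strand with its first base 40 to 25 bases before the start. It occurred in Ccl12, Ccl8, Cxcl15 and Cxcl3, which are 4 of 23 ligands, and in 1.91% of all 32851 windows. Anywhere in the window and on either strand it occurred in 9 of 23 (39.1%) and in 13.6% of all windows. Motifs were chosen with the sequences in view, and a match is a description only. Ccl12 and Ccl8 are shown because they are neighbours that kept a similar layout while their array orders differed. The 60 bases before each start on the plus strand are chr11:82101785-82101844 for Ccl12 and chr11:82115125-82115184 for Ccl8, with TATAAA in capitals.
Ccl12: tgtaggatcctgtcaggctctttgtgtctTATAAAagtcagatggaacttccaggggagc
Ccl8: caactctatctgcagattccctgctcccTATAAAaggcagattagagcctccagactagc

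Ccl5 draws T cells and monocytes and is made by T cells among others. It had the smallest unadjusted p of the ligands. The log2 signals were 7.52, 7.34 and 7.46 in KO, against 8.07, 7.63 and 7.89 in WT. All KO values lay under all WT values, by 0.11 at the closest. The means were 7.44 ± 0.09 in KO and 7.86 ± 0.22 in WT (SD, n = 3 each), a fold of 0.747 (95% interval 0.598 to 0.931), with a limma adjusted p of 1.0. Over the 15 alternatives the difference lay between -0.55 and -0.32, and the unadjusted p stayed under 0.05 in 14, the exception being the fit without KO replicate 2. Without both arrays with high Xist it was -0.55, while those arrays alone differed by -0.17, KO replicate 3 minus WT replicate 2.

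T cell markers lay in the same direction as Ccl5. Of 6 measured, all had lower means in KO, with a median difference of -0.10. Cd3g, a chain of the T cell receptor complex, differed by -0.42 and was dimmer than the array median on every array. It alone had an unadjusted p under 0.05 in limma, 1 of 6 (16.7%), beside 0.838% of all genes. The others differed by -0.25 (Cd3d) to -0.02 (Cd28). The summed linear intensities of the 6 markers were 235, 216 and 276 in KO, against 250, 267 and 279 in WT, so the groups overlapped. Only Cd3e was brighter than the array median on all 6 arrays. The part of the T cell markers in the Ccl5 value was not tested. Ccl3 and Ccl4, macrophage inflammatory proteins that sit with Ccl5 in a run of 5 ligand genes on chromosome 11, were dimmer than the array median on every array and differed by 0.13 and 0.10. Of the 3, only Ccl5 had a lower mean in KO on all arrays. Without both arrays with high Xist, Ccl3 differed by -0.06 and Ccl4 by 0.01.

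Ccl6 and Ccl9, macrophage-derived ligands of Ccr1 in the same run, barely differed by mean. Ccl6 had 9.29, 9.54 and 9.46 in KO, against 9.22, 9.37 and 9.74 in WT, a fold of 0.990 (95% interval 0.764 to 1.28). Ccl9 had 8.33, 8.67 and 8.49 in KO, against 8.26, 8.49 and 8.83 in WT, a fold of 0.983 (95% interval 0.741 to 1.30). Both were lowest on WT replicate 1 and highest on WT replicate 3, with the 6 arrays in the same order for the pair.

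Cxcl9, Cxcl10 and Cxcl11 are interferon-inducible ligands of Cxcr3, the receptor of effector T cells, and form a run of 3 on chromosome 5. All 3 had lower means in KO, with a median difference of -0.15. Cxcl11 had log2 signals of 5.57, 5.51 and 5.79 in KO, against 6.03, 5.86 and 5.83 in WT, with no overlap and a closest gap of 0.04. Its fold was 0.824 (95% interval 0.684 to 0.993), and the unadjusted p stayed under 0.05 in 6 of 14 alternatives. The signal was below the array median on all 6 arrays, and RefSeq lists Cxcl11 as a transcribed pseudogene in its mouse build.

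Cxcl9 had 9.57, 9.19 and 9.79 in KO, against 9.55, 9.65 and 9.65 in WT. The KO values lay on both sides of the WT values, and the fold was 0.933 (95% interval 0.714 to 1.22). The difference of -0.10 was -0.22 without both arrays with high Xist and 0.06 without KO replicate 2. Cxcl10 had 6.36, 6.49 and 6.60 in KO, against 6.80, 6.66 and 6.43 in WT, a fold of 0.903 (95% interval 0.733 to 1.11). WT replicate 3 lay among the KO values. The Cxcl10 difference of -0.15 was -0.06 without WT replicate 1 and -0.24 without WT replicate 3. Promoter stretches of Cxcl9 and Cxcl10 are shown because interferons induce both. The letters GAAANNGAA, 9 bases of the interferon-stimulated response element searched on both strands, occurred in Ccl1, Ccl3, Ccl19, Cxcl9, Cxcl10 and Cxcl14, which are 6 of the 23 matched ligands (26.1%), and in 8.56% of all windows. The letters TTCNNNGAA of the gamma-activated site (GAS) were searched too. They occurred in Ccl17 and Cxcl14, 2 of the 23 matched ligands (8.70%), and in 8.30% of all windows. Cxcl11 had no window. The stretches are chr5:92328210-92328269 for Cxcl9, 190 to 131 bases before its start, and chr5:92349030-92349119 for Cxcl10, 230 to 141 bases before its start, both on the minus strand of GRCm38.p6. Capitals mark the 9 letters GAAANNGAA in both, which are a part of the interferon-stimulated response element and not the whole of it. Further 3′ in Cxcl9 they mark the NF-κB letters GAAATTCCC. Other forms of the NF-κB site were not counted or marked in either stretch. The matches do not overlap.
Cxcl9: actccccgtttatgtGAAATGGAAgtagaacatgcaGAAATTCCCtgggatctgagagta
Cxcl10: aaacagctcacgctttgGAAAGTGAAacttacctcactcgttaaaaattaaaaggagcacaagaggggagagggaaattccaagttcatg

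Xcl1, made by activated CD8 T cells and NK cells and read by Xcr1 on cross-presenting dendritic cells, had 4.46, 4.64 and 4.70 in KO, against 4.85, 4.82 and 4.90 in WT. The groups were apart by 0.13 at the closest. Its fold was 0.837 (95% interval 0.714 to 0.981), and its unadjusted p stayed under 0.05 in 8 of 14 alternatives. The signal was below the array median on every array. Xcr1 differed by -0.07.

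**Figure D2:**
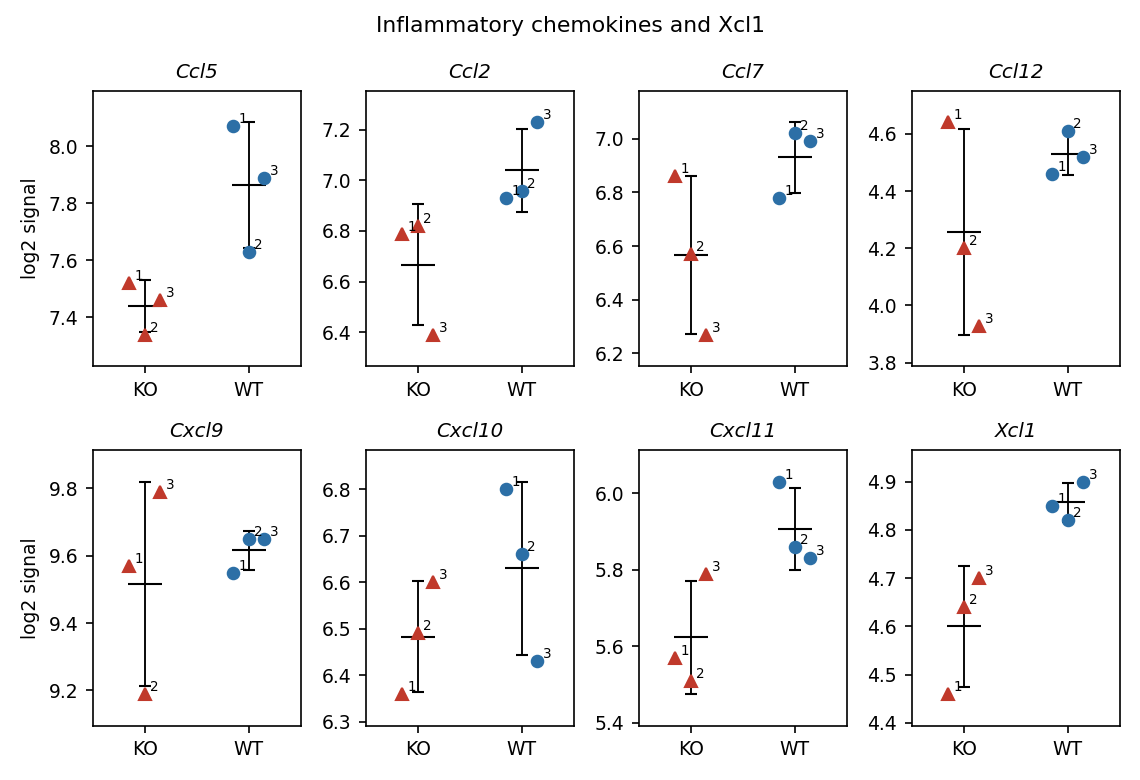
Log2 signal on each of the 6 arrays for 7 inflammatory ligands and Xcl1, with KO left of WT, each point 1 mouse, its number the replicate, and the bars the mean ± SD. The KO and WT points of Ccl5, Ccl2, Cxcl11 and Xcl1 do not overlap, while those of Ccl7 do.

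Ligands of Cxcr2, which draw neutrophils, were dim. Cxcl1, Cxcl2, Cxcl3 and Cxcl5 were below the array median on all 6 arrays, and 3 of the 4 had lower means in KO, with a median difference of -0.05. Their differences ran from -0.08 for Cxcl2 to 0.04 for Cxcl3. They form a run of 5 with Cxcl15 on chromosome 5. The NF-κB letters GGGAATTTC were searched on both strands, and other forms of the site were not counted. The letters were found in the windows of Cxcl1, Cxcl2, Cxcl3 and Cxcl9. These are 4 of 23 matched ligands (17.4%), beside 85 of the 32851 windows (0.259%). Those of Cxcl1, Cxcl2 and Cxcl3 are shown because they share the match and were all dim in both genotypes. They cover the 100 bases before each start on the plus strand of GRCm38.p6, at chr5:90891145-90891244 for Cxcl1, chr5:90903799-90903898 for Cxcl2 and chr5:90786001-90786100 for Cxcl3, with the match in capitals.
Cxcl1: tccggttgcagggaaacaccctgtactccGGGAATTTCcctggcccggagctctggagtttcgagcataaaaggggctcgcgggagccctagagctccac
Cxcl2: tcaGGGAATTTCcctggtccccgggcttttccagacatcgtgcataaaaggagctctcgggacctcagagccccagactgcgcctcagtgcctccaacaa
Cxcl3: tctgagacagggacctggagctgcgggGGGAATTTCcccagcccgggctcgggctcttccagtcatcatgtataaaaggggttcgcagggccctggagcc

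The eotaxins Ccl11, Ccl24 and Ccl26 attract eosinophils through Ccr3. Ccl11 had 9.0, 9.03 and 9.21 in KO, against 8.59, 9.25 and 9.02 in WT, a fold of 1.09 (95% interval 0.812 to 1.47). WT replicate 1 was the lowest array and WT replicate 2 the highest. Without WT replicate 1 the difference was -0.05. Ccl24, made by macrophages, had 6.58, 6.53 and 6.73 in KO, against 6.15, 6.74 and 7.08 in WT, a fold of 0.972 (95% interval 0.659 to 1.43). All KO values lay inside the WT range, and without WT replicate 3 the difference was 0.17. Ccl26 was dim and differed by -0.10.

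Homeostatic ligands numbered 6, of which 2 had higher and 4 lower means in KO, with a median difference of -0.07. Cxcl12, the Cxcr4 ligand that retains haematopoietic cells in marrow and is made by stromal cells, had 8.50, 8.43 and 9.10 in KO, against 8.64, 8.60 and 8.91 in WT. KO replicate 3 was the highest array and the groups overlapped, with a fold of 0.972 (95% interval 0.697 to 1.36). The difference of -0.04 was -0.31 without both arrays with high Xist. Cxcl13, the Cxcr5 ligand that places B cells in follicles, had 7.09, 7.74 and 8.61 in KO, against 9.09, 7.70 and 8.33 in WT, a fold of 0.679 (95% interval 0.305 to 1.51). Its values spread over 2.0 log2 units, with KO and WT interleaved. The difference of -0.56 was -1.29 without both arrays with high Xist, -0.19 without KO replicate 1 and -0.20 without WT replicate 1. The 6 B cell markers measured, of which 5 were dimmer than the array median on every array, summed to 181, 162 and 192 in KO, against 201, 167 and 187 in WT. Their part in the Cxcl13 value was not tested.

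Ccl19, which guides Ccr7-bearing T cells and dendritic cells in lymph nodes, had 8.91, 9.10 and 8.09 in KO, against 9.01, 8.23 and 9.56 in WT. Its fold was 0.853 (95% interval 0.439 to 1.66). It was lowest on KO replicate 3 and WT replicate 2, the arrays with high Xist. The difference of -0.23 was -0.27 without that pair, and it turned to 0.08 without KO replicate 3 and to 0.08 without WT replicate 3. Its 4 probe sets differed by 0.15, -0.20, -0.23 and 0.02, of which the brightest is given here, and RefSeq holds Ccl19 pseudogenes that may share its probes, so its value is uncertain. The 5 markers of lymph node stroma averaged log2 signals of 6.45, 6.52 and 6.57 in KO, against 6.49, 6.70 and 6.57 in WT, and their part in the Ccl19 value was not tested. Ccl28, a mucosal ligand of Ccr10, had 8.38, 5.62 and 5.72 in KO, against 5.90, 5.55 and 6.45 in WT. Its fold was 1.53 (95% interval 0.437 to 5.34). KO replicate 1 alone was high, and without it the difference of 0.61 became -0.29. That array was also highest for each of the 6 liver markers. Their summed intensity on it was 686, against 210 to 526 on the other 5 arrays. The sum was 526 on KO replicate 3, where Ccl28 was 5.72, and 210 on WT replicate 3, where Ccl28 was 6.45. The part of the liver markers in the Ccl28 value was not tested.

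Ccl25, the Ccr9 ligand of thymus and small intestine, had 6.77, 6.77 and 6.93 in KO, against 6.75, 6.52 and 6.66 in WT. The groups stood apart by 0.02. Its fold was 1.13 (95% interval 0.958 to 1.34), the difference did not pass at an unadjusted p under 0.05, and its other probe set differed by -0.03. Without both arrays with high Xist the difference of 0.18 was 0.07. Cxcl14, an epithelial and stromal ligand, had 6.80, 7.23 and 7.16 in KO, against 7.37, 7.23 and 6.92 in WT, a fold of 0.931 (95% interval 0.705 to 1.23).

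**Figure D3:**
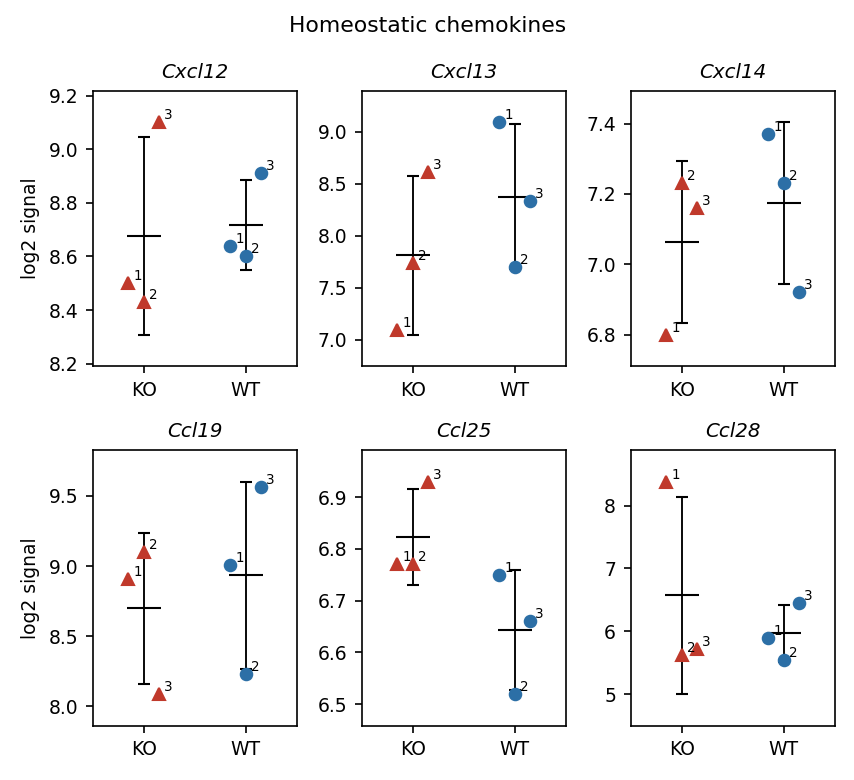
Log2 signal on each of the 6 arrays for the homeostatic ligands, with KO left of WT, each point 1 mouse, its number the replicate, and the bars the mean ± SD. Ccl28 is high in KO replicate 1 alone, and the values of Cxcl13 run from 7.09 to 9.09.

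Ligands with both homeostatic and inflammatory roles had means that were higher in KO for 2 and lower for 4, with a median of -0.08. Cx3cl1, the membrane-bound ligand of Cx3cr1 on monocytes, had 7.07, 7.07 and 6.60 in KO, against 7.12, 6.43 and 6.79 in WT, a fold of 1.09 (95% interval 0.767 to 1.56). Cxcl16, a membrane-bound ligand of Cxcr6, had 7.13, 7.05 and 7.74 in KO, against 7.33, 7.24 and 7.13 in WT, a fold of 1.05 (95% interval 0.763 to 1.46). KO replicate 3 alone was high, and the difference of 0.08 became -0.14 without both arrays with high Xist. Ccl17 and Ccl22, the Ccr4 ligands made by dendritic cells, differed by -0.07 and -0.15, and Ccl20, the Ccr6 ligand, by -0.08. Set side by side, the inflammatory ligands had a median of -0.09 with 16 of 20 lower, and the homeostatic ligands a median of -0.07 with 4 of 6 lower. The difference between the 2 classes was not tested.

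The order of arrays within a genotype differed between ligands. For 8 of 34 ligands (23.5%), both arrays with high Xist were above or both below the other 4, beside 26.2% of all genes. The 5 above were Ccl1, Ccl8, Ccl11, Cxcl1 and Cxcl9, and the 3 below were Ccl17, Ccl19 and Cx3cl1. Without both arrays Ccl11 differed by 0.21, beside 0.13 on all arrays, and Cx3cl1 by 0.11, beside 0.13. Among the dimmer ones, Ccl17 differed by -0.20 without them, beside -0.07, Ccl1 by -0.15, beside -0.09, and Cxcl1 by -0.11, beside -0.06. WT replicate 3 held the highest mean over all ligands, 6.46, against 6.24 to 6.36 on the other 5 arrays.

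**Figure D4:**
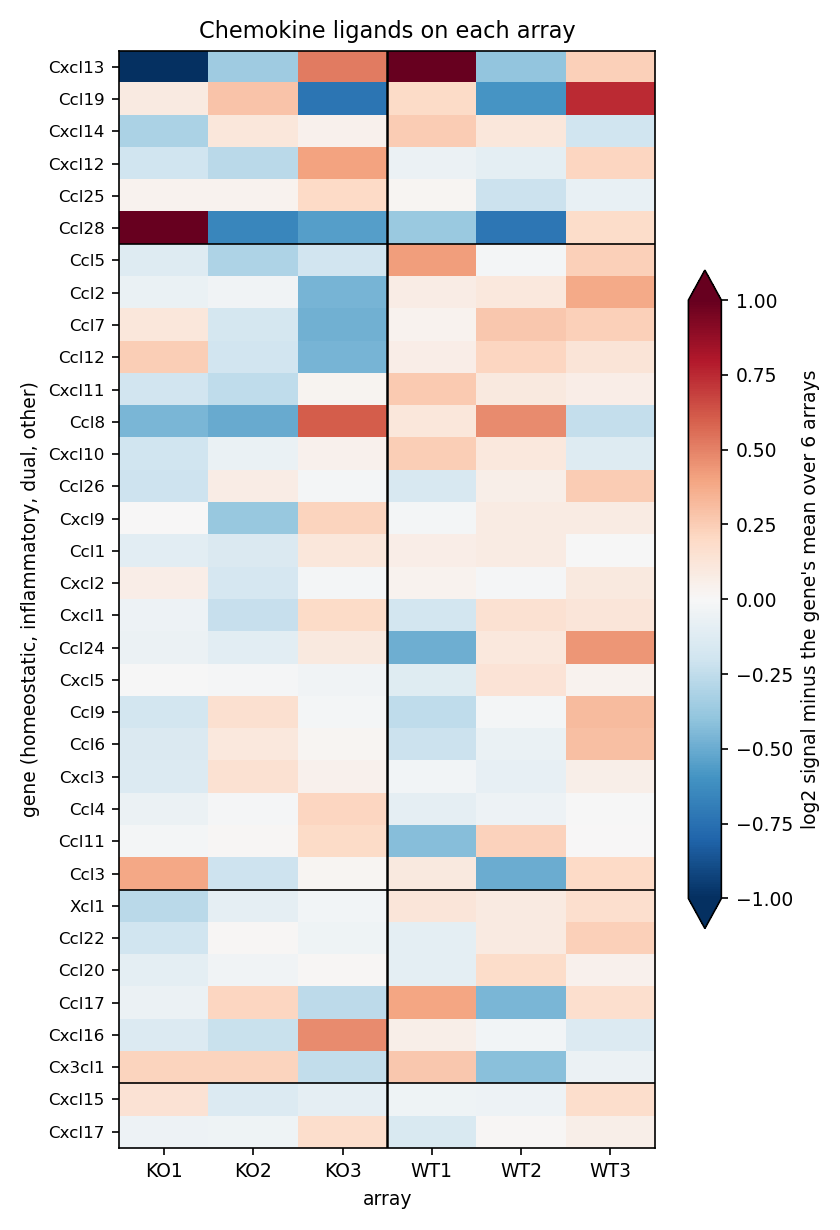
Deviation of each array's log2 signal from the ligand's mean over the 6 arrays, for the 34 ligands, with KO columns left of WT columns, and red above and blue below the mean on a scale that ends at 1 log2 unit either way. Cxcl13, Ccl19 and Ccl28 have the strongest colours, and KO replicate 3 is the bluest column of Ccl2, Ccl7 and Ccl12.

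Receptors were taken from a list of 18, of which 17 were measured and 13 were dimmer than the array median on all 6 arrays. By mean 5 were higher and 12 lower in KO, with a median of -0.06. In limma 0 of 17 had an unadjusted p under 0.05, beside 0.838% of all genes. Cxcr6, the Cxcl16 receptor of resident T cells, had 5.12, 5.07 and 5.22 in KO, against 5.23, 5.48 and 5.39 in WT, with a fold of 0.849. It was the only receptor whose genotypes did not overlap, 1 of 17 (5.88%), near the 4.61% of all genes. Cxcr3 had 6.03, 5.74 and 6.15 in KO, against 6.09, 6.29 and 6.21 in WT, a fold of 0.858. Cxcr4 had 7.05, 7.08 and 6.73 in KO, against 6.68, 6.79 and 6.47 in WT, a fold of 1.24 (95% interval 0.981 to 1.56). Of the atypical receptors, Ackr2 and Ackr4 differed by -0.24 and -0.30, and the other 3 by 0.07 to 0.09. The platelet chemokine Pf4 had 8.80, 8.87 and 8.56 in KO, against 8.93, 8.96 and 9.32 in WT, a fold of 0.796. Its genotypes did not overlap, beside 4.61% of all genes that did not. Ppbp, the other platelet chemokine, differed by 0.11. Neither symbol matches the naming rule of the ligands, so neither is counted among them.

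**Figure D5:**
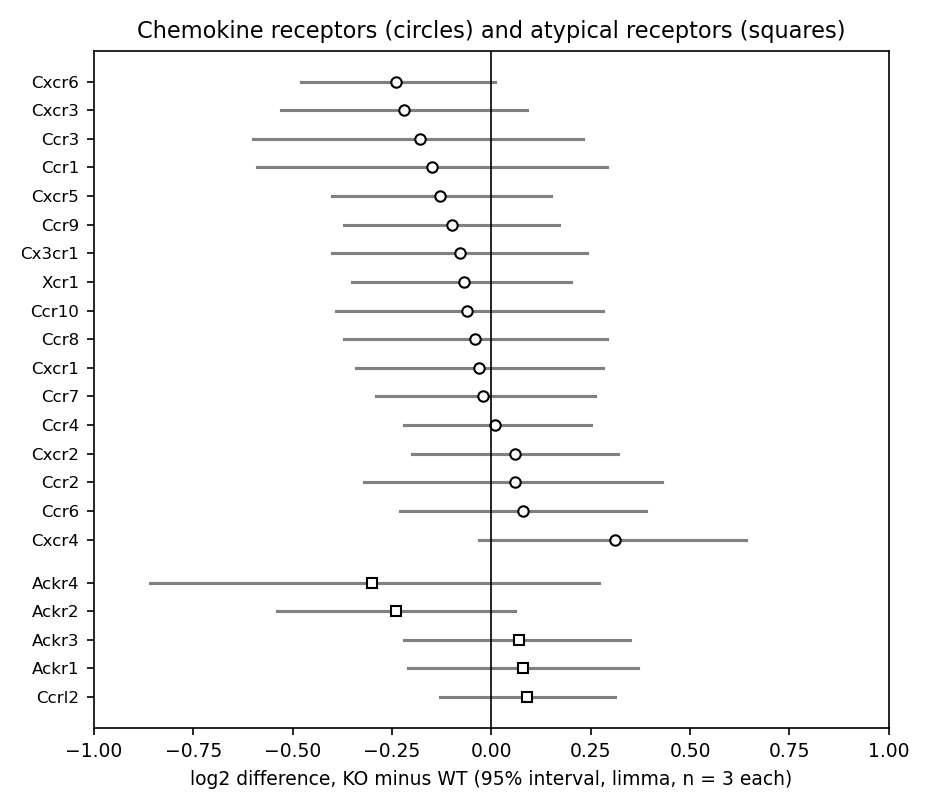
Log2 difference, KO minus WT, with the 95% limma interval for the 17 receptors (circles) and 5 atypical receptors (squares), n = 3 per genotype. Every interval includes 0, and Cxcr4 (0.31) and Ackr4 (-0.30) have the highest and lowest differences.

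Of 16 inducers and transcription factors measured, 5 had higher and 11 lower means, with a median of -0.04. None had an unadjusted p under 0.05 (0 of 16) in limma, beside 0.838% of all genes. Tnf, a cytokine that induces Ccl2, differed by 0.21, Nfkbia, the NF-κB inhibitor, by 0.15, Il1b by -0.16 and Relb by -0.09. Il4 values did not overlap, at a difference of -0.07 and a dim signal. That is 1 of 16 (6.25%), near the 4.61% of all genes.

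The remaining ligands were dim. Ccl1, a Ccr8 ligand, differed by -0.09, Cxcl15 (lungkine) by -0.06 and Cxcl17 by 0.06. Over the 14 ligands not given array by array under the naming rule, differences ran from -0.28 for Ccl12 to 0.13 for Ccl3, with 4 higher and 10 lower in KO, and their values overlapped between the genotypes in every case.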

How the data were processed

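RNA from adipose tissue of 3 KO and 3 WT mice was amplified, labelled with biotin and hybridised to Affymetrix arrays, per the labels and the methods. The authors deposited linear intensity values for 34760 probe sets, summarised and normalised by RMA, with no version stated. Log2 was taken. Platform annotation gave 21640 probe sets a single symbol, 1321 several and 11799 none. For genes with more than 1 probe set, the brightest by mean log2 signal was used. Genotypes were compared with limma 3.58.1 in R 4.3.3 (lmFit, eBayes, no covariate), fitted on all probe sets with Benjamini-Hochberg adjustment over all of them. The fit was tested on simulated data. The number of arrays limits precision, with a median SE of 0.12 log2 units over genes and 0.15 over ligands. A signal above the array median is not a detection call.

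Members, gene lists, motifs and tests were chosen with earlier results of these data known. Ligands given array by array were those above the array median on all arrays, those with an unadjusted p under 0.05 or values that did not overlap, the 4 with the widest range within a genotype, and the 2 homeostatic and 2 inflammatory ligands with the largest difference. Ccl12 is given beyond this rule, after its values were seen. Of the receptor and inducer lists, up to 4 with the smallest unadjusted p were given; other genes of these lists were named as partners of a ligand, and the atypical receptors and Il4 after their values were seen. Motifs were shortened to at most 9 letters after a first search with longer forms, which match fewer windows. Promoter sequences are RefSeq's (GRCm38.p6), and 11 ligands had no matching entry. The main fit did not use the replicate numbers as pairs, since no label ties them to a litter or batch. The replicate block, an alternative, does pair arrays of the same number. Alternatives were another variance model, array weights, other normalisations, a filter on dim probe sets, the mean over a gene's probe sets, a replicate block, the methods' t-test, and fits with arrays left out. Some items were not reported here.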

Additional observations from a re-analysis of the deposited data

How the results depend on the processing

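No ligand had a limma adjusted p under 0.05 in any of the 15 alternatives run. Of 298 differences recomputed over the 20 ligands followed through them, 17 reversed their sign at 2 decimals. The other 281 did not, and these include differences of 0.00. The 2 probe sets called became 0 with the replicate block, 0 with the methods' t-test after adjustment, 0 without both arrays with high Xist, and 1 to 2 when a single array was left out. Ligands with an unadjusted p under 0.05, 4 of 34 in limma, became 2 of 19 with dim probe sets left out. Their count was 1 with the replicate block (Ccl5), 2 with the methods' t-test, and 1 to 4 with a single array left out. Without both arrays with high Xist it was 4, namely Ccl5, Cxcl11, Cxcl13 and Xcl1, so that Ccl2 was no longer among them. Receptors, 0 of 17 in limma, became 2 with array weights, 1 with the replicate block, 1 with the methods' t-test, 2 without both arrays with high Xist and 0 to 2 with a single array left out. The share of all genes under that p was 0.838% in limma, 1.67% with array weights, 0.780% with dim probe sets left out, 0.697% with the replicate block, 1.74% with the methods' t-test, 1.40% without both arrays with high Xist and 0.507% to 1.45% with a single array left out, and a count of 1 among 34 or 17 genes is the smallest above 0. Deviations from the genotype means correlated at -0.150, -0.373 and -0.095 between same-numbered arrays, and at 0.516 for KO replicate 2 with WT replicate 1, 0.483 for KO replicate 3 with WT replicate 2 and 0.368 for KO replicate 1 with WT replicate 3. No label pairs the mice in either way. The count of ligands lower in KO, a summary added after seeing the data, was 25 and became 14 of 19 with dim probe sets left out. With a single array left out, the ligands' median of -0.08 ran from -0.12 to -0.01, the value nearest 0 being that without WT replicate 3. The inflammatory median of -0.09 became -0.16 with array weights, and with a single array left out it ran from -0.15 to -0.04, the value nearest 0 coming when KO replicate 2 or WT replicate 3 was dropped. The homeostatic median of -0.07 was 0.07 without WT replicate 3 and -0.20 without both arrays with high Xist.

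Signs turned for 11 ligands when a single array was left out. Their ranges were -0.05 to 0.28 for Ccl11, -0.58 to 0.08 for Ccl19, -0.29 to 0.17 for Ccl24, -0.29 to 1.09 for Ccl28, -0.13 to 0.14 for Ccl6, -0.16 to 0.12 for Ccl9, -0.04 to 0.30 for Cx3cl1, -0.25 to 0.08 for Cxcl12, -0.23 to 0.03 for Cxcl14, -0.14 to 0.20 for Cxcl16 and -0.24 to 0.06 for Cxcl9. Cxcl16 was also -0.14 without both arrays with high Xist. The cause was not tested. The other 9 ligands, Ccl2, Ccl5, Ccl7, Ccl8, Ccl25, Cxcl10, Cxcl11, Cxcl13 and Xcl1, kept their sign in every alternative run. With 3 mice per genotype, a difference smaller than the distance between an estimate and the end of its 95% interval was not told apart from 0.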
